A study of Mus musculus with 8 samples.

Results

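The 34 genes described here encode chaperones of the endoplasmic reticulum (ER) and of the cytosol, together with sensors, degradation factors and translocon subunits that work with them. They were taken by name from a list drawn up with earlier results of these data known, with no threshold on a measured value, and matched by Entrez gene identifier. All 34 were found among the 18125 genes that the deposited tables list, and each had a value in all 8 libraries. Products of 23 members reside in or act at the ER, and 11 are cytosolic heat shock proteins and co-chaperones, of which Hspd1 and Hspe1 encode the mitochondrial chaperonin and its partner. The study asked how the transcriptome of polarizing mouse macrophages changes when creatine is lacking. The knockout (KO) cells came from Slc6a8-/y mice on the C57BL/6 background, which lack the X-linked creatine transporter, and the wild-type (WT) cells came from C57BL/6 mice. Every group holds 1 library: KO and WT peritoneal macrophages with IFN-gamma at 10 ng/mL for 12 hours, KO and WT peritoneal macrophages without it, KO and WT bone marrow-derived macrophages with IL-4 at 10 ng/mL for 6 hours, and KO and WT bone marrow-derived macrophages without it. All peritoneal cells had been drawn into the cavity by an injection of 1 ml of 4% thioglycollate and taken 3 to 4 days later, and all bone marrow cells had been grown for 5 days with 10% M-CSF. The age of the mice and whether the libraries of a genotype share an animal were not given.

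Proteins bound for the cell surface, the lysosome or secretion fold in the ER with the help of the HSP70 chaperone BiP (Hspa5), the HSP90 paralog GRP94 (Hsp90b1), protein disulfide isomerases and the lectins calreticulin and calnexin. When unfolded protein accumulates, the sensors IRE1 (Ern1), ATF6 and PERK start the unfolded protein response, in which cleaved ATF6 and the spliced form of XBP1 raise transcription of these chaperones. The heat shock response of the cytosol is a separate program driven by HSF1, with HSP70, HSP90, their J-domain partners and BAG3 among its targets.

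Short promoter motifs are shown for 2 programs. Those through which ATF6 and XBP1 are known to act are shown in matching members that edgeR called higher with IFN-gamma. A heat shock element, bound by HSF1, is shown in the chaperonin gene Hspd1. RefSeq promoter sequence of the GRCm38.p6 assembly was at hand for 28 members, 20 of the ER and 8 of the cytosol, and not for Hyou1, Manf, Atf6, Hspa8, Hsp90aa1 and Hsp90ab1. The ER stress response element, ERSE, was searched as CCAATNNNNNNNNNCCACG on both strands of the 250 bases before the start site. It was found in 8 of 20 ER members (Hspa5, Hsp90b1, Pdia6, Calr, Canx, Dnajc3, Creld2 and Syvn1), in 0 of 8 cytosolic members and in 35 of 27025 mouse genes, or 0.13%. Its variant ERSE-II, ATTGGNCCACG, was found in Herpud1 and in 10 of 27025 genes, or 0.037%. Canx and Syvn1 matched ERSE but were not called with IFN-gamma, and Dnajb11 was called higher without a match to either element. The UPRE core TGACGTGG was in 0 of the 28 members and in 0.603% of genes. A heat shock element, searched as GAANNTTCNNGAA, was in Hspd1 and Hspe1, whose divergent promoters share the same stretch with 2 overlapping matches, 1 on each strand, and in 0.514% of genes. Each stretch below holds the match or matches in capitals with 10 bases on each side, 5′ to 3′ on the strand of the gene. A match written as CGTGG before ATTGG lies on the other strand, and a match is a description of letters, not a measured binding site. The stretches lie at chr2:34772015-34772053 (plus strand) for Hspa5, chr10:86705523-86705666 (minus strand) for Hsp90b1, chr12:17266481-17266519 (plus strand) for Pdia6, chr8:84847065-84847103 (minus strand) for Calr, chr14:118937817-118937855 (plus strand) for Dnajc3, chr15:88819510-88819548 (plus strand) for Creld2, chr8:94386367-94386397 (plus strand) for Herpud1 and chr1:55088049-55088086 (minus strand) for Hspd1.
Hspa5: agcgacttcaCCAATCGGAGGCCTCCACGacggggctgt
Hsp90b1: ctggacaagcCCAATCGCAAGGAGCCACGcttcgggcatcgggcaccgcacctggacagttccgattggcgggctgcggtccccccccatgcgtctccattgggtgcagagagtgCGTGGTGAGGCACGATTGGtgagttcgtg
Pdia6: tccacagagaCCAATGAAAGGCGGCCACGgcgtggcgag
Calr: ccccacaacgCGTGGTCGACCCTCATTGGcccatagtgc
Dnajc3: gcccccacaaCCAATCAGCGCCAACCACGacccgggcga
Creld2: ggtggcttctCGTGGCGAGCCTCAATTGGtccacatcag
Herpud1: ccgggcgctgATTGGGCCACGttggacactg
Hspd1: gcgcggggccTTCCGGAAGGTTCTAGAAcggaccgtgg

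The peritoneal libraries held 10812678 to 11065427 expected counts and the bone marrow-derived ones 20553654 to 21221526. Slc6a8, the deleted gene, stood at 0.18 to 1.71 FPKM in the 4 KO libraries and at 39.5 to 163.5 FPKM in the 4 WT libraries. FPKM scales a gene's fragments for transcript length and library size, so that levels of different genes can be set side by side. All 8 of 8 macrophage markers were listed above 0 in every library. Their sum was 6090 FPKM in KO and 7442 FPKM in WT peritoneal cells with IFN-gamma, 8533 FPKM in KO and 10201 FPKM in WT peritoneal cells without it, and 11610 to 14491 FPKM in the bone marrow-derived libraries. Of the 7 genes of the plasma cell list, which marks cells rich in ER, 4 were listed in any library, and 1 to 4 of these were above 0. The immunoglobulin genes Ighm, Igkc and Igha were not listed, so that nothing can be said of their level. Nearly all of its sum of 25.3 to 198.8 FPKM was Sdc1, which macrophages also express, and Jchain, a defining gene, was at 0.00 to 0.26 FPKM. Sums of the B cell, T and NK cell, neutrophil, eosinophil and mast cell, and dendritic cell lists were 0.17 to 11.6 FPKM. Of these lists, T and NK cells had 3 of 6 genes listed, and eosinophils and mast cells 5 of 6. The 7 fibroblast and mesothelium markers summed to 88.6 FPKM in KO and 111.6 FPKM in WT peritoneal cells with IFN-gamma, to 124 FPKM in KO and 133 FPKM in WT peritoneal cells without it, and to 172 to 376 FPKM in bone marrow-derived libraries. In such bulk samples, fewer cells of a type and less RNA per cell cannot be told apart.

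Every member was expressed. Calr, the calcium-binding lectin chaperone, was the highest ER member in all 8 libraries, at 326 to 699 FPKM. Hspa5, Hsp90b1 and Pdia3, an isomerase that works with calreticulin and calnexin, came next in every library at 138 to 387 FPKM. The lowest was Ern1 in every peritoneal library, at 7.80 to 9.79 FPKM, and Ern1, Herpud1 or Dnajc3 in the bone marrow-derived ones, at 13.4 to 14.8 FPKM. Hspa8, the constitutive cytosolic HSP70, was the highest of all members at 639.8 to 1136 FPKM. Hsp90ab1, the constitutive HSP90, came next in its class at 308 to 552 FPKM. The stress-inducible HSP70 genes Hspa1a and Hspa1b were the lowest, at 1.12 to 3.44 FPKM and 3.94 to 5.38 FPKM. Hspa1a and Hspa1b are near-identical copies, so that the split of reads between them is uncertain, and Hspa1a had only 34.8 to 205 expected counts.

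In peritoneal macrophages the ER chaperones were higher after IFN-gamma in WT cells and much less so in KO cells. The 23 ER members summed to 1970 FPKM in KO and 2724 FPKM in WT cells given IFN-gamma, and to 1866 FPKM in KO and 1995 FPKM in WT untreated cells. The WT library with IFN-gamma held the highest of the 4 peritoneal values for 18 of the 23 ER members, and the KO library with IFN-gamma held it for 0. With 1 library a group these are sizes without a test, and the intervals in parentheses are 95% and cover counting error only.

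**Figure D1:**
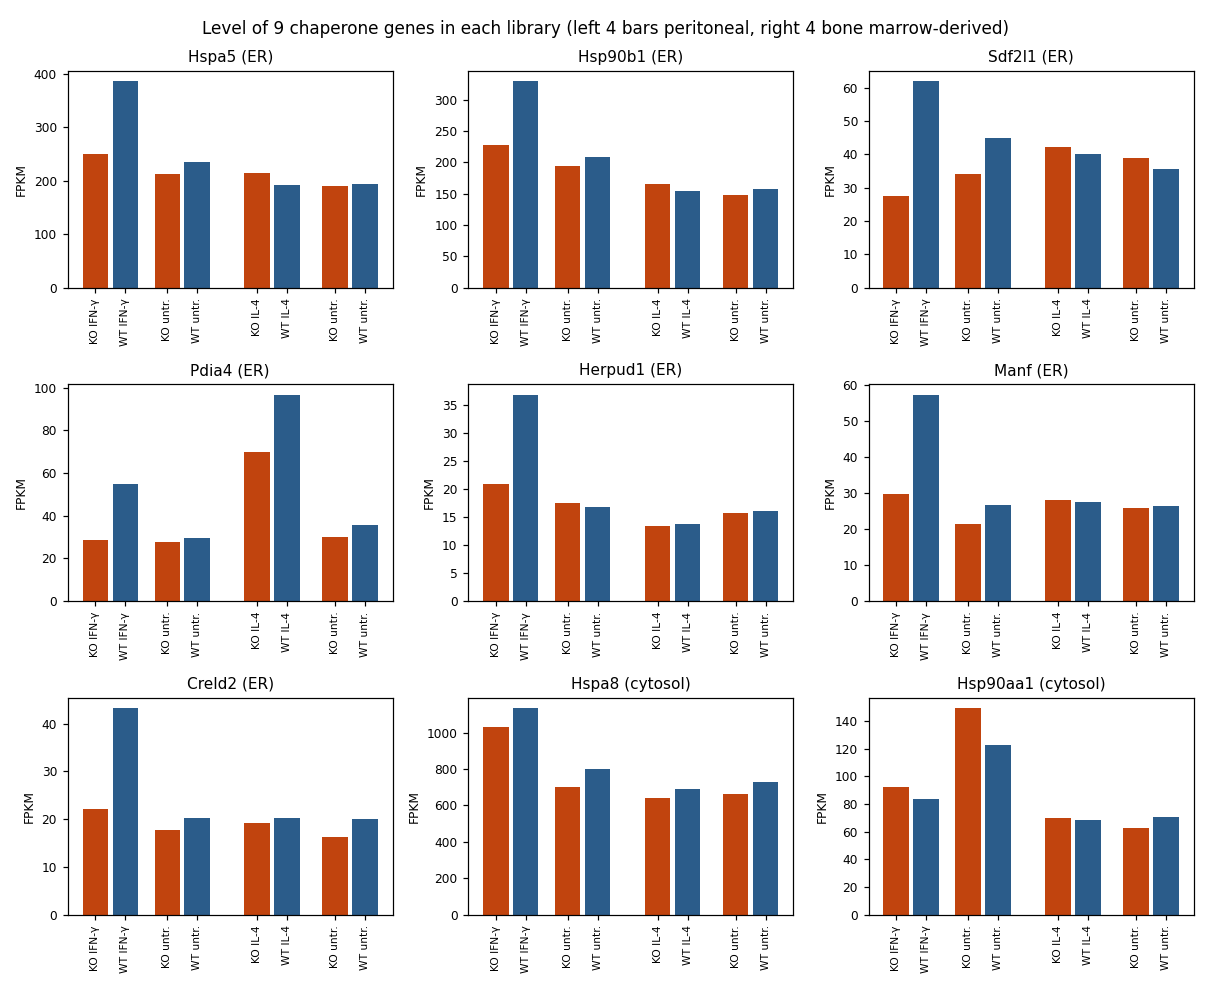
Level of 9 members in FPKM (vertical axis, from 0) in each of the 8 libraries, KO in orange and WT in blue, with the 4 peritoneal libraries on the left of each panel and the 4 bone marrow-derived ones on the right. For the ER members other than Pdia4 the highest bar is the WT peritoneal library with IFN-gamma (Hspa5 at 387 FPKM, Herpud1 at 36.9 FPKM); for Pdia4 it is the WT library with IL-4 at 96.8 FPKM.

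Among the major folding chaperones, Hspa5 stood at 249 FPKM in KO and 387 FPKM in WT cells given IFN-gamma, and at 212 FPKM in KO and 236 FPKM in WT untreated cells. The IFN-gamma library of WT cells was apart from the other 3, which lay between 212 and 249 FPKM. Its log2 ratio of IFN-gamma over untreated was 0.23 (0.18 to 0.28) in KO and 0.71 (0.67 to 0.76) in WT cells. Hsp90b1 stood at 228 FPKM in KO and 329.8 FPKM in WT cells given IFN-gamma, and at 194 FPKM in KO and 209 FPKM in WT untreated cells, and its ratios were 0.23 (0.18 to 0.28) in KO and 0.66 (0.61 to 0.70) in WT cells. As for Hspa5, the WT library with IFN-gamma was high and the KO one stood near the untreated ones. Hyou1, a nucleotide exchange factor for BiP, stood at 37.3 FPKM in KO and 55.1 FPKM in WT cells given IFN-gamma, and at 34.9 FPKM in KO and 39.3 FPKM in WT untreated cells. Calr and Canx, the lectin chaperones, spanned 553 to 699 and 112 to 136 FPKM over the 4 libraries, with log2 ratios of 0.14 in KO and 0.26 in WT for Calr and of 0.04 in KO and 0.28 in WT for Canx.

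The disulfide isomerases form and rearrange the cysteine bridges of new proteins. Pdia4 stood at 28.4 FPKM in KO and 54.8 FPKM in WT cells given IFN-gamma, and at 27.8 FPKM in KO and 29.7 FPKM in WT untreated cells, so that KO cells showed a log2 ratio of 0.03 (-0.11 to 0.17) and WT cells one of 0.86 (0.74 to 0.98). Only the WT library with IFN-gamma was high. Pdia6 stood at 74.9 FPKM in KO and 117 FPKM in WT cells given IFN-gamma, and at 60.4 FPKM in KO and 75.3 FPKM in WT untreated cells, with ratios of 0.31 (0.21 to 0.41) in KO and 0.63 (0.54 to 0.72) in WT cells. Pdia3 stood at 188 FPKM in KO and 294 FPKM in WT cells given IFN-gamma, and at 189 FPKM in KO and 213 FPKM in WT untreated cells, so that its 2 KO libraries were nearly level, and had ratios of -0.01 (-0.07 to 0.04) in KO and 0.46 (0.41 to 0.51) in WT cells.

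The J-domain co-chaperones, which hand clients to BiP, differed among themselves. Dnajb9 (ERdj4) stood at 20.5 FPKM in KO and 29.7 FPKM in WT cells given IFN-gamma, and at 32.3 FPKM in KO and 25.8 FPKM in WT untreated cells. Its lowest value was in KO cells with IFN-gamma and its highest in KO cells without it, and the log2 ratio was -0.63 (-0.81 to -0.45) in KO and 0.19 (0.03 to 0.36) in WT cells. Dnajc3, which also restrains PERK, spanned 19.6 to 32.3 FPKM and had 0.14 (0.02 to 0.25) in KO and 0.62 (0.51 to 0.72) in WT cells, and Dnajb11, at 42.4 to 61.5 FPKM, had 0.10 (-0.03 to 0.23) in KO and 0.53 (0.40 to 0.65) in WT cells. Sdf2l1, a cofactor of BiP in a complex with Dnajb11, stood at 27.6 FPKM in KO and 61.9 FPKM in WT cells given IFN-gamma, and at 34.2 FPKM in KO and 44.9 FPKM in WT untreated cells. The KO library with IFN-gamma was its lowest and the WT library with IFN-gamma its highest, with ratios of -0.30 (-0.51 to -0.09) in KO and 0.46 (0.30 to 0.62) in WT cells.

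The 3 members with the highest WT ratios are targets of the unfolded protein response. Herpud1, an adaptor of ER-associated degradation, stood at 20.8 FPKM in KO and 36.9 FPKM in WT cells given IFN-gamma, and at 17.4 FPKM in KO and 16.9 FPKM in WT untreated cells. Manf, a secreted BiP partner, stood at 29.7 FPKM in KO and 57.4 FPKM in WT cells given IFN-gamma, and at 21.3 FPKM in KO and 26.7 FPKM in WT untreated cells. Creld2, an ER-resident factor induced by ER stress, stood at 22.1 FPKM in KO and 43.2 FPKM in WT cells given IFN-gamma, and at 17.8 FPKM in KO and 20.2 FPKM in WT untreated cells. In each, WT cells with IFN-gamma stood alone at 2.09 to 2.12 times the untreated WT level, while KO cells with IFN-gamma were at 1.18 (Herpud1), 1.37 (Manf) and 1.23 (Creld2) times the untreated KO level, on the scale of FPKM + 1.

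In KO cells the sensors Atf6 and Ern1 and the transcription factor Xbp1 were lower with IFN-gamma than without it. Atf6 stood at 12.5 FPKM in KO and 15.7 FPKM in WT cells given IFN-gamma, and at 23.9 FPKM in KO and 20.1 FPKM in WT untreated cells; it was lower with IFN-gamma in both genotypes, with log2 ratios of -0.89 (-0.99 to -0.78) in KO and -0.33 (-0.44 to -0.23) in WT cells. Xbp1, whose spliced mRNA encodes the active factor, stood at 59.3 FPKM in KO and 83.0 FPKM in WT cells given IFN-gamma, and at 71.0 FPKM in KO and 71.8 FPKM in WT untreated cells, with ratios of -0.26 (-0.35 to -0.16) in KO and 0.21 (0.11 to 0.30) in WT cells. The deposited tables sum over both Xbp1 transcripts they list, and no share of the spliced form was computed. The mean length they give for Xbp1 was 2263 bases in KO and 2260 bases in WT cells with IFN-gamma, and 2263 bases in KO and 2264 bases in WT untreated peritoneal cells. In bone marrow-derived cells it was 2260 bases in KO and 2264 bases in WT with IL-4, and 2262 bases in KO and 2263 bases in WT without it. A length of 2260 bases was thus not particular to WT cells with IFN-gamma. Ern1, at 7.80 to 9.79 FPKM, had -0.29 (-0.50 to -0.09) in KO and -0.01 (-0.22 to 0.20) in WT cells. The degradation factors Edem1 (36.5 to 42.9 FPKM), Sel1l (43.4 to 49.2 FPKM) and Syvn1 (26.8 to 39.2 FPKM), the last a ubiquitin ligase that Sel1l holds in place, had ratios of -0.20, -0.18 and -0.12 in KO cells and of -0.01, 0.05 and 0.32 in WT cells. Ssr1, at 14.3 to 18.8 FPKM, and Sec61b, at 45.9 to 74.3 FPKM, encode parts of the translocon through which new proteins enter the ER. They had ratios of -0.07 and -0.19 in KO cells and 0.21 and 0.26 in WT cells.

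Over the 23 ER members the median log2 ratio of IFN-gamma over untreated was 0.03 in KO cells, with 12 above 0, and 0.46 in WT cells, with 20 above 0. All 10670 genes at 1 FPKM or more on average had medians of -0.11 in KO and -0.05 in WT cells. A ratio of 1.5-fold or more was seen in 0 ER members in KO cells, where 11.8% of all genes were that high, and in 8 ER members in WT cells (Hspa5, Hsp90b1, Pdia4, Pdia6, Dnajc3, Herpud1, Manf and Creld2), where 11% of all genes were. Atf6 and Dnajb9 were at least 1.5-fold lower in KO cells, as were 15.7% of genes, and 0 ER members were in WT cells, where 10.9% of genes were. With libraries rescaled so that the median gene did not move, a shift of about 0.11 in KO and 0.05 in WT cells, the ER median became 0.15 in KO and 0.51 in WT cells. Under it 8 ER members lay below 0 in KO cells and 1 in WT cells.

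**Figure D2:**
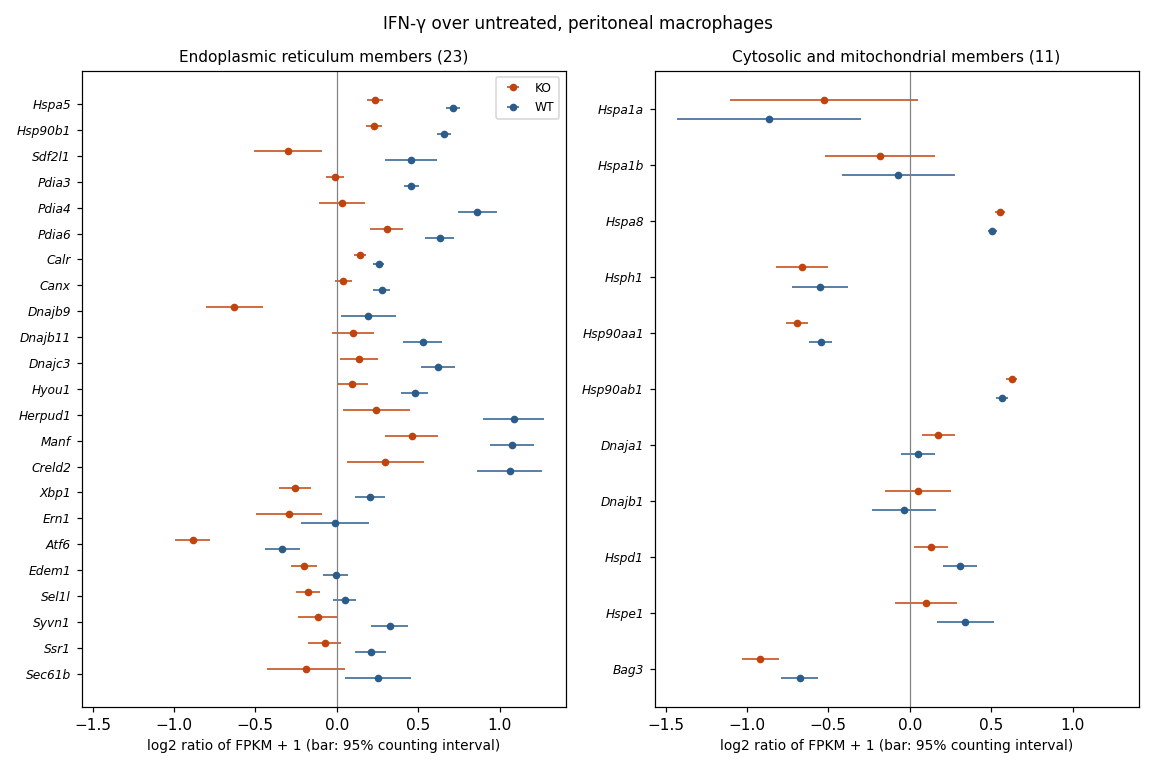
Log2 ratio of FPKM + 1, IFN-gamma over untreated (horizontal axis), for each ER member (left) and each cytosolic or mitochondrial member (right) in peritoneal macrophages, KO in orange above WT in blue, with bars for the 95% counting interval. Each ER member has its KO point left of its WT point (Herpud1 at 0.24 in KO and 1.08 in WT), whereas in the right panel 5 of the 11 KO points lie to the right of the WT points.

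Set against each other within IFN-gamma-treated cells, all 23 ER members were lower in KO than in WT, with a median log2 ratio of -0.53 and a range of -1.14 to -0.11. Over all genes 53.4% were lower in KO and the median was -0.02. At least 1.5-fold lower in KO were 9 ER members, against 4.45% of genes. They were Sdf2l1 at -1.14 (-1.33 to -0.95), Creld2 at -0.94 (-1.13 to -0.75), Manf at -0.93 (-1.06 to -0.80), Pdia4 at -0.93 (-1.05 to -0.80), Herpud1 at -0.79 (-0.96 to -0.62), Sec61b at -0.68 (-0.91 to -0.46), Pdia3 at -0.64 (-0.69 to -0.59), Pdia6 at -0.64 (-0.72 to -0.55) and Hspa5 at -0.63 (-0.68 to -0.59). Just inside that limit was Hspa5, and just outside it were Hyou1 and Dnajc3, both at -0.55. Without IFN-gamma, 16 of 23 ER members were lower in KO, against 42.2% of genes, with a median of -0.09. There, 0 members of either class differed by 1.5-fold, as 2.53% of genes did, and Sdf2l1 at -0.38 (-0.57 to -0.20) and Dnajb9 at 0.31 (0.14 to 0.48) were the ends of the range.

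The KO response minus the WT response was below 0 for all 23 ER members, against 60.5% of genes, with a median of -0.45 and a range of -0.84 to -0.11. For the 22 other than Ern1 the counting interval also lay below 0. It was at least 1.5-fold below for 6 of them (Herpud1, Pdia4, Dnajb9, Creld2, Sdf2l1 and Manf), as for 4.45% of genes. The ER members with an ERSE or ERSE-II match had a median of -0.44 (n = 9) and those without one -0.45 (n = 11), and their WT medians were 0.63 and 0.21. All 23 stayed below 0 when libraries were rescaled, with a median of -0.38, and when TMM-scaled counts were used, with a median of -0.37. The 2 responses and their difference rest on the same 4 libraries, so that these counts are not separate pieces of evidence. The summed macrophage and fibroblast markers, given above, were also lower in KO than in WT peritoneal cells, both with IFN-gamma and without it. With IFN-gamma the macrophage sum was mostly Lyz2, at 4277 FPKM in KO and 5385 FPKM in WT cells. In that list Mertk (85.0 FPKM in KO and 55.8 FPKM in WT) and Cd14 (18.2 and 15.9 FPKM) were higher in KO, and the others lower. Dcn of the fibroblast list was level, at 31.8 FPKM in KO and 31.5 FPKM in WT cells, and its others were lower in KO. The part of these markers in the differences was not tested.

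**Figure D3:**
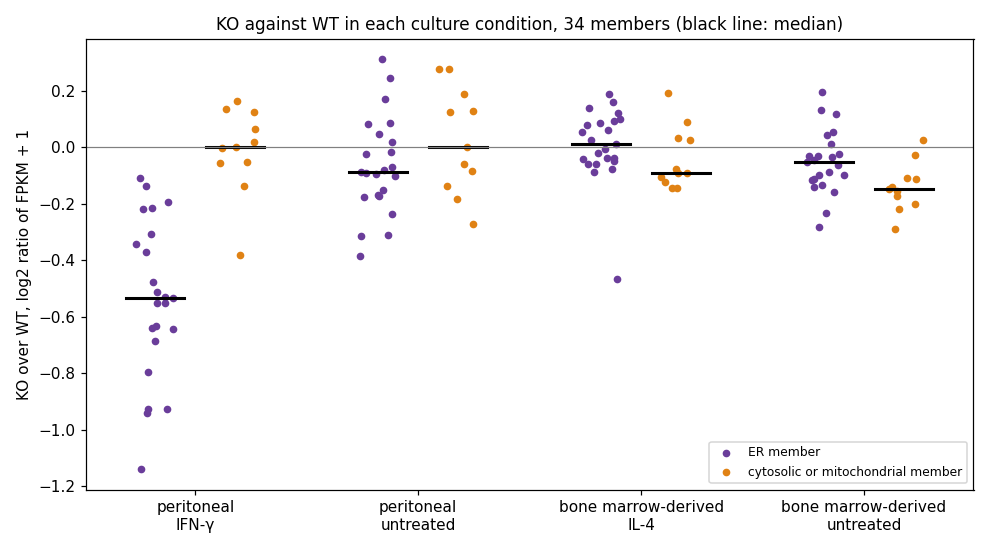
Log2 ratio of FPKM + 1, KO over WT (vertical axis), for the 34 members in each culture condition (horizontal axis), ER members in purple and cytosolic or mitochondrial ones in orange, with the median as a black line. In IFN-gamma-treated peritoneal cells all 23 ER points are below 0 around a median of -0.53 while the other class has a median of 0.00; in the other 3 conditions both medians lie between -0.15 and 0.01, and the low purple point with IL-4 is Pdia4 at -0.47.

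The additive edgeR fit, which takes IFN-gamma and genotype as terms over the 4 peritoneal libraries with 1 residual degree of freedom, called 12 members higher and 5 lower with IFN-gamma at a Benjamini-Hochberg adjusted p under 0.05. Over all 12052 genes tested, 17.2% were called higher and 14.9% lower. Of the ER members, 10 rose and 1 fell, and 12 were not called. Manf rose most, by 0.89 ± 0.15 (SE, adjusted p = 0.00719) on the log2 scale with edgeR. Creld2 (0.82 ± 0.18), Herpud1 (0.80 ± 0.20), Pdia6 (0.57 ± 0.11), Hspa5 (0.57 ± 0.12), Hsp90b1 (0.54 ± 0.12), Dnajc3 (0.49 ± 0.13), Hyou1 (0.39 ± 0.11), Dnajb11 (0.38 ± 0.11) and Calr (0.30 ± 0.09) also rose, with edgeR adjusted p from 0.0103 to 0.04996. Neither DESeq2 nor limma called Calr, Dnajb11, Dnajc3 and Hyou1, limma also lost Herpud1 and Creld2, and other size factors lost Calr, so that both other tools kept Hspa5, Hsp90b1, Pdia6 and Manf. Atf6 fell by 0.55 ± 0.14 (SE, adjusted p = 0.0316) with edgeR, a call that limma kept and DESeq2 lost. Pdia4 was not called (0.56 ± 0.19, edgeR adjusted p = 0.0699), nor were Sdf2l1, Pdia3, Canx, Dnajb9, Xbp1, Ern1, Edem1, Sel1l, Syvn1, Ssr1 and Sec61b. The fit assumes the same response in both genotypes, and any difference between them enters its error. Counts moved with the tool: DESeq2 called 8 members of both classes higher and 2 lower, and limma 6 higher and 5 lower. Without the low count filter Pdia4 was called too. No label says that libraries came from separate animals or cultures, so these p-values measure only the spread between these libraries. An animal shared within a genotype could not be told apart from genotype. It would make the p-values of the genotype terms below too small.

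For genotype, the same peritoneal fit called 0 members, where 0.0332% of all genes were called, and DESeq2 and limma called 0 members as well. Before adjustment, 13 members had an edgeR p under 0.05, all of them lower in KO and 12 of them ER members, where 13.9% of genes reached it in either direction. The ER median of this term was -0.33, and the 2 members with the lowest edgeR p were Pdia6 at -0.49 ± 0.11 (SE, adjusted p = 0.234) and Sdf2l1 at -0.79 ± 0.18 (SE, adjusted p = 0.239). Over all 4 culture conditions, the genotype term called 0 members, as 0.00756% of genes were called. There, 7 members had an unadjusted p under 0.05 in edgeR, against 9.44% of genes, and DESeq2 and limma called 0 members. Pairs were then left out singly. Without the IFN-gamma peritoneal pair that count of 7 was 2, where 1231 of 13299 genes passed. Without the untreated peritoneal pair it was 2, where 1111 of 13281 genes passed. It was 5 without the IL-4 bone marrow-derived pair, where 709 of 12621 genes passed, and 5 without the untreated one, where 1137 of 12596 did. The genotype term of peritoneal minus that of bone marrow-derived cells called 0 members with edgeR, DESeq2 and limma, against 0.106% of genes called by edgeR. Before adjustment 11 members passed, against 15.8% of genes.

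A further fit asked whether the KO minus WT difference with IFN-gamma departs from that of the other 3 culture conditions. It used all 8 libraries, left 2 residual degrees of freedom and was chosen after the values had been seen. The IFN-gamma pair has its own term there, so the error comes only from the other 3 conditions, mostly bone marrow-derived. The spread between libraries that edgeR estimated was 4.57% in the fit of bone marrow-derived cells alone. In that of peritoneal cells alone it was 10.4%, with any difference in response between genotypes included. The p-values may therefore be too small for a peritoneal difference. Herpud1 was called lower, at -0.78 ± 0.13 (SE, adjusted p = 0.0447) with edgeR, the single member called where 0.398% of 13571 genes were called lower. It lost the call with DESeq2 (adjusted p = 0.128) and with limma (adjusted p = 0.0537), while DESeq2 called Sdf2l1, and Sdf2l1, Manf and Creld2 were called as well without the low count filter. Before adjustment, 16 members passed, all of them ER members and lower, where 13% of genes passed in either direction. The cytosolic and mitochondrial members had 0 below an unadjusted p of 0.05. A separate fit of the same form for each other condition called 0 members and 0% of genes. In those fits any departure of the IFN-gamma pair enters the error. The spread between libraries that edgeR estimated was 10.6% to 11.6% there, against 7.23% in the IFN-gamma fit. Their lack of calls therefore cannot show that the other conditions do not depart. Before adjustment 0 members passed in any of these 3, against 4.29% of genes for untreated peritoneal cells, 0.936% for IL-4-treated and 1.36% for untreated bone marrow-derived cells. DESeq2 and limma called 0 members there too.

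Of the 11 cytosolic and mitochondrial members, 2 rose, where 17.2% of all genes did, and 4 fell, where 14.9% did, with IFN-gamma, each with the same sign in both genotypes. Hspa8 stood at 1033 FPKM in KO and 1136 FPKM in WT cells given IFN-gamma, and at 703 FPKM in KO and 799 FPKM in WT untreated cells, and both IFN-gamma libraries lay above both untreated ones. It rose by 0.63 ± 0.09 (SE, adjusted p = 0.00393) with edgeR. Hsp90ab1 stood at 552 FPKM in KO and 552 FPKM in WT cells given IFN-gamma, and at 358 FPKM in KO and 373 FPKM in WT untreated cells, with the same separation, and rose by 0.69 ± 0.09 (SE, adjusted p = 0.00292) with edgeR. Its paralog Hsp90aa1, the stress-inducible HSP90, went the other way: it stood at 92.2 FPKM in KO and 83.8 FPKM in WT cells given IFN-gamma, and at 149 FPKM in KO and 123 FPKM in WT untreated cells. It fell by 0.53 ± 0.09 on the log2 scale with edgeR (adjusted p = 0.00834), and both IFN-gamma libraries were below both untreated ones.

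Hsph1, the HSP110 exchange factor of HSP70, stood at 13.5 FPKM in KO and 11.9 FPKM in WT cells given IFN-gamma, and at 21.9 FPKM in KO and 18.0 FPKM in WT untreated cells, and Bag3, an HSP70 co-chaperone of selective autophagy, at 33.8 FPKM in KO and 35.0 FPKM in WT cells given IFN-gamma, and at 64.6 FPKM in KO and 56.6 FPKM in WT untreated cells. In both, the IFN-gamma libraries were below the untreated ones. The edgeR terms were -0.55 ± 0.10 (SE, adjusted p = 0.00916) for Hsph1 and -0.72 ± 0.10 (SE, adjusted p = 0.00348) for Bag3. Hspa1a fell by 1.002 ± 0.249 (SE) on few counts, with an edgeR adjusted p of 0.0277. DESeq2 called neither Hsph1 nor Hspa1a lower, whereas limma called both. Summed over Hspa1a and Hspa1b, which sets the uncertain split aside, the level was 5.44 FPKM in KO and 5.28 FPKM in WT cells with IFN-gamma, and 7.12 FPKM in KO and 7.28 FPKM in WT cells without it. The HSP40 partners Dnaja1 (38.3 to 43.4 FPKM) and Dnajb1 (11.6 to 12.4 FPKM) were not called. Nor were the mitochondrial Hspd1 (50.8 to 63.3 FPKM) and Hspe1 (50.9 to 71.2 FPKM), or Hspa1b. The edgeR terms of these genes were -0.06 to 0.32, and with other size factors Hspd1 was called higher.

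Between genotypes the medians of the class were near 0 in peritoneal cells. With IFN-gamma the median log2 ratio of KO over WT was 0.00, with 5 of 11 lower in KO, and without IFN-gamma it was also 0.00. The range was -0.38 to 0.165 with IFN-gamma and -0.271 to 0.278 without it. With IFN-gamma, Hspe1 at -0.38 (-0.556 to -0.205) and Hspa8 at -0.137 were lower in KO beyond counting error. Hsp90aa1 at 0.135 and Dnaja1 at 0.125 were higher beyond it. Without IFN-gamma, Hsp90aa1 at 0.278, Hsph1 at 0.276, Bag3 at 0.188 and Hspd1 at 0.123 were higher in KO beyond counting error. Hspa8 at -0.183 and Hsp90ab1 at -0.061 were lower beyond it there. The KO minus WT response had a median of -0.11, with 6 of 11 below 0. In it 0 members reached 1.5-fold, which 4.1% of genes did above 0 and 4.45% below. Its counting interval lay below 0 for Bag3, Hspd1 and Hsp90aa1, and above 0 for Hspa8 and Hsp90ab1. On the FPKM + 1 scale Bag3 was at least 1.5-fold lower with IFN-gamma in both genotypes (-0.92 in KO and -0.68 in WT). Hspa1a passed that size in WT cells alone (-0.53 in KO and -0.86 in WT), Hsph1 and Hsp90aa1 passed it in KO cells alone, and Hsp90ab1 was that much higher in KO cells alone (0.62 in KO and 0.56 in WT). Of all genes, 15.7% in KO and 10.9% in WT cells were that much lower, and 11.8% in KO cells that much higher. These counts depend on the scale. With a pseudocount of 0.1, 4 members of the class in KO and 3 in WT cells were that much lower, against 19.9% and 14.2% of genes. With rescaled libraries 1 in KO and 2 in WT cells were, against 12.5% and 9.87% of genes. The KO minus WT responses of these 5 genes were -0.24 (Bag3) to 0.34 (Hspa1a).

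In bone marrow-derived macrophages the member with the largest IL-4 term was Pdia4. It stood at 69.8 FPKM in KO and 96.8 FPKM in WT cells given IL-4, and at 30.1 FPKM in KO and 35.6 FPKM in WT untreated cells. Both IL-4 libraries lay above both untreated ones, and WT lay above KO in each pair. The log2 ratio of IL-4 over untreated was 1.19 (1.10 to 1.27) in KO and 1.42 (1.34 to 1.49) in WT cells, and on the FPKM + 1 scale no other member was 1.5-fold higher in either genotype, where 3.15% of all genes in KO and 3.02% in WT cells were that high. With a pseudocount of 0.1, or on TMM-scaled counts, 1 cytosolic member passed that size in KO cells. The edgeR additive fit gave an IL-4 term of 1.37 ± 0.06 (SE, adjusted p = 4.47e-07). Its genotype term was -0.36 ± 0.06 (SE, adjusted p = 0.0106) by edgeR. Pdia4 was the single member called for genotype, where 3.68% of all 12879 genes were called lower. DESeq2 called Pdia4 for genotype as well, and limma did not (adjusted p = 0.0717). In pairs, Pdia4 in KO over WT was -0.47 (-0.53 to -0.41) with IL-4 and -0.23 (-0.33 to -0.14) without it. No member differed 1.5-fold between KO and WT in either bone marrow-derived pair, where 2.86% of genes with IL-4 and 1.77% without it did.

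**Figure D4:**
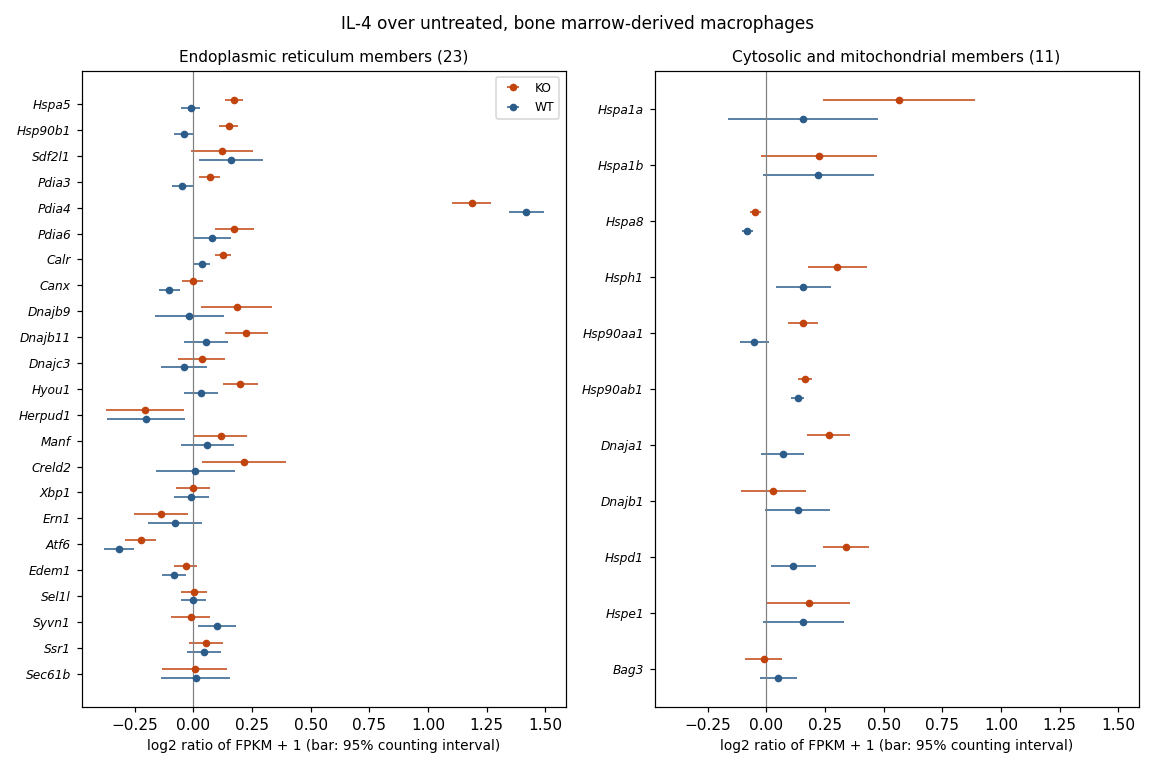
Log2 ratio of FPKM + 1, IL-4 over untreated (horizontal axis), for each ER member (left) and each cytosolic or mitochondrial member (right) in bone marrow-derived macrophages, KO in orange above WT in blue, with bars for the 95% counting interval. Pdia4 stands apart at 1.19 in KO and 1.42 in WT, and the other ER members lie between -0.32 and 0.23.

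The other ER members stayed within 1.5-fold with IL-4. Hspa5 stood at 215 FPKM in KO and 192 FPKM in WT cells given IL-4, and at 190.3 FPKM in KO and 193 FPKM in WT untreated cells, and its 4 values lay between 190.3 and 215 FPKM. Herpud1 stood at 13.4 FPKM in KO and 13.8 FPKM in WT cells given IL-4, and at 15.7 FPKM in KO and 16.1 FPKM in WT untreated cells, lower with IL-4 in both genotypes, and was not called (-0.18 ± 0.08, edgeR adjusted p = 0.13). Of the 23 ER members 2 rose (Pdia4 and Pdia6) and 1 fell, and 20 were not called. Over all genes 12% were called higher and 9.23% lower. Pdia6 rose by 0.17 ± 0.05 (SE, adjusted p = 0.0443) with edgeR, a call that DESeq2, limma and other size factors did not make. Atf6 stood at 20.8 FPKM in KO and 21.4 FPKM in WT cells given IL-4, and at 24.5 FPKM in KO and 27.0 FPKM in WT untreated cells, below its untreated level in both genotypes. It fell by 0.24 ± 0.05 with edgeR (adjusted p = 0.00663), as it had with IFN-gamma in the other cell type. The median log2 ratio over the ER members was 0.07 in KO and 0.00 in WT cells. The KO minus WT response was above 0 for 17 of 23 ER members, against 54% of genes, with a median of 0.08.

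Among the 11 cytosolic and mitochondrial members, 5 rose with IL-4, where 12% of all genes did, and 0 fell in the edgeR fit. Hsph1 stood at 15.3 FPKM in KO and 17.1 FPKM in WT cells given IL-4, and at 12.2 FPKM in KO and 15.2 FPKM in WT untreated cells, and its term was 0.28 ± 0.06 (SE, adjusted p = 0.00875) with edgeR. Hspd1, the mitochondrial chaperonin, stood at 37.8 FPKM in KO and 37.2 FPKM in WT cells given IL-4, and at 29.7 FPKM in KO and 34.2 FPKM in WT untreated cells, with a term of 0.27 ± 0.06 (SE, adjusted p = 0.0117) with edgeR. In both genes the IL-4 libraries lay above the untreated ones. Dnaja1 (0.21 ± 0.06), Hsp90ab1 (0.19 ± 0.04) and Hspa1a (0.54 ± 0.15) rose too, with edgeR adjusted p of 0.0292, 0.0113 and 0.0304. Hspa1a and Hspa1b summed to 8.21 FPKM in KO and 8.27 FPKM in WT cells with IL-4, and to 5.94 FPKM in KO and 6.96 FPKM in WT untreated cells. All these IL-4 terms were 0.54 or less on the log2 scale. DESeq2 called 2 members higher (Pdia4 and Hsp90ab1), limma 1 (Pdia4), so that the rises of Hsph1, Hspd1, Dnaja1 and Hspa1a were lost with both. In untreated cells 10 of the 11 were lower in KO than in WT, against 51.2% of genes, or 9 of the 11 on TMM-scaled counts, with a median of -0.15, and Hsph1 at -0.29 (-0.42 to -0.16) was the lowest.

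IFN-gamma and IL-4 were given to different cell types for different times, so that the difference of their terms cannot be told apart from cell type. In the fit of all 8 libraries it was called for 10 members, 6 higher with IFN-gamma, where 13.9% of 13224 genes were called higher, and 4 lower, where 12.4% were. Higher were Herpud1 (1.01 ± 0.24, edgeR adjusted p = 0.021), Manf (0.79 ± 0.17), Hspa8 (0.67 ± 0.09), Hsp90ab1 (0.53 ± 0.09), Hsp90b1 (0.47 ± 0.14) and Pdia6 (0.43 ± 0.12). Lower were Hspa1a (-1.52 ± 0.30), Hsph1 (-0.81 ± 0.10, edgeR adjusted p = 0.00148), Bag3 (-0.76 ± 0.11) and Hsp90aa1 (-0.60 ± 0.11). Limma lost all 4 ER members (Herpud1, Manf, Hsp90b1 and Pdia6), DESeq2 lost Hsp90b1 and Pdia6, and other size factors lost Hsp90b1. Without the low count filter Hspa5, Dnajc3 and Creld2 were called higher as well. DESeq2 and limma kept the 6 cytosolic members. In edgeR, Hsph1 and Hspa1a were called lower with IFN-gamma and higher with IL-4, but DESeq2 called neither gene in either cell type and limma neither with IL-4. Pdia4, at -0.78 ± 0.24 (SE, adjusted p = 0.0527) with edgeR, was not called there, and was called lower by DESeq2, with other size factors and without the low count filter.

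Related genes outside the 34 members were read from lists of the same pathways. Of 10 genes of the PERK and ATF4 branch, which answers ER stress and amino acid shortage, 7 rose, where 17.2% of all genes did, and 1 fell, where 14.9% did, with IFN-gamma. Asns, asparagine synthetase, stood at 31.1 FPKM in KO and 27.9 FPKM in WT cells given IFN-gamma, against 3.76 FPKM in KO and 4.81 FPKM in WT untreated cells, and rose by 2.88 ± 0.17 (SE, adjusted p = 0.000153) with edgeR. Nupr1, a stress-induced chromatin protein, stood at 22.1 FPKM in KO and 40.0 FPKM in WT cells given IFN-gamma, against 7.61 FPKM in KO and 7.70 FPKM in WT untreated cells, and its KO library with IFN-gamma lay between the WT one and the untreated ones. Chac1 (2.58 ± 0.31), Trib3 (1.31 ± 0.19), Atf4 (0.69 ± 0.09) and Sesn2 (0.63 ± 0.13) rose as well, and Atf3 fell (-1.07 ± 0.11). The median KO minus WT response of the 10 was 0.00, with 4 below 0, whereas the 19 other ER folding genes at 1 FPKM or more had a median of -0.27, with 17 below 0, and the 11 genes of the translocon and signal peptidase -0.23, with 10 below 0. Among 13 further genes of ER-associated degradation the median was -0.05, with 9 below 0. Over all genes the median was -0.06 and 60.5% were below 0.

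Of all genes, 17.2% were called higher and 14.9% lower with IFN-gamma, and 12% higher and 9.23% lower with IL-4. Several of the other pathway lists had shares near or below these. With IFN-gamma, edgeR called 4 of the 11 translocon and signal peptidase genes higher (Sec61g, Sec61a1, Ssr2 and Spcs2), 1 of 21 other ER folding genes (Ero1b, an oxidase that recharges the isomerases), and 1 higher (Selenos) and 1 lower (Edem2) of 13 tested degradation genes. Of 26 further heat shock and co-chaperone genes, cytosolic or nuclear apart from Serpinh1 of the ER, 3 rose (Dnaja2, Hspa4 and Ptges3) and 2 fell (Hspb1 and Dnajb4). Hspb1, the small heat shock protein HSP27, stood at 3.27 FPKM in KO and 3.75 FPKM in WT cells given IFN-gamma, against 9.54 FPKM in KO and 8.82 FPKM in WT untreated cells. The cytosolic chaperonin TRiC had 2 of 8 genes higher with IFN-gamma and 5 of 8 with IL-4 (Cct3, Cct6a, Cct5, Cct7 and Cct2), and the mitochondrial chaperone list 2 of 8 and 3 of 8. With IL-4, 4 other ER folding genes rose (Sil1, Txndc5, Txndc11 and Mesd) and Ero1b fell; 3 of the 26 heat shock and co-chaperone genes rose (Fkbp5, Hspa4 and Stub1) and 2 fell (Dnajb4 and Hspa4l). IL-4 also raised 2 PERK and ATF4 branch genes (Atf3 and Atf4), 3 translocon and signal peptidase genes (Spcs2, Ssr2 and Sec61a1) and the degradation gene Ube2g2, while Edem3 fell. For genotype in bone marrow-derived cells, the collagen chaperone Serpinh1 (HSP47), a heat shock protein that resides in the ER, fell in KO by 0.68 ± 0.06 (SE, adjusted p = 0.000121) with edgeR, and Hspb1 fell by 0.63 ± 0.12 (SE, adjusted p = 0.0137) with edgeR. Serpinh1 stood at 28.8 FPKM in KO and 47.9 FPKM in WT cells with IL-4 and at 31.3 FPKM in KO and 48.4 FPKM in WT untreated cells. The fibroblast marker sum differed in the same direction there (172 FPKM in KO and 354 FPKM in WT with IL-4, 200.5 FPKM in KO and 376 FPKM in WT without it), and its part in this was not tested.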

How the data were processed

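RNA-seq gene tables of 8 mouse macrophage libraries were used. Per the submitters' processing notes, the authors' reads were handled with Bowtie2 2.2.5 and with RSEM, for which no version was found, on mm10. Per the file headers, each deposited table holds an expected count, the estimated number of fragments the authors assigned to a gene, and an FPKM value, which the authors scaled by transcript length and library size. The headers also give a gene length. Genes absent from a library's table were set to 0.

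Expected counts were rounded and tested with edgeR 4.0.16 in R 4.3.3 (TMM, filterByExpr, quasi-likelihood test) over all genes, with Benjamini-Hochberg adjustment and a threshold of 0.05. Each SE was taken from the F statistic, as the size of the log2 change over its square root. All 34 members passed the filter in every fit. Log2 ratios of 2 libraries were taken on FPKM + 1, set beside those of all genes averaging 1 FPKM or more over the 4 libraries of a cell type, with 95% intervals from the counts alone. Alternatives were DESeq2 1.42.0, limma 3.58.1 on log2(FPKM + 1), other size factors, no low count filter, a pseudocount of 0.1 and rescaled libraries. Some of the fits were also run on simulated counts, drawn with the same spread for every gene. For the additive fits no difference in response between genotypes was simulated, so those runs say nothing about such differences. The members were given as a list and named in full; members and companion lists were chosen with earlier results of these data known.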

Additional observations from a re-analysis of the deposited data

Results flagged for a closer look

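The peritoneal KO minus WT difference of Herpud1 with IFN-gamma stood apart from that of the other 3 culture conditions in a direct test of the difference, at -0.784 on the log2 scale (edgeR adjusted p = 0.0447, in a fit added after the values had been seen). The call was lost with DESeq2 (adjusted p = 0.128) and with limma (adjusted p = 0.0537). The error of that fit came only from the other 3 conditions, mostly bone marrow-derived. Single libraries moved in opposite directions in the 2 genotypes for 4 members, each beyond its counting error. The difference between the 2 responses was not itself tested. In the fit used for Herpud1, which asks another question, the edgeR adjusted p was 0.068 for Sdf2l1, 0.193 for Dnajb9 and 0.125 for Xbp1, and DESeq2 gave Sdf2l1 an adjusted p of 0.041. With IFN-gamma, Sdf2l1 had a log2 ratio of -0.30 in KO and 0.46 in WT cells, a difference of -0.756. Dnajb9 had -0.63 in KO and 0.19 in WT cells, a difference of -0.823. Xbp1 had -0.26 in KO and 0.21 in WT cells, a difference of -0.461. With IL-4, Pdia3 had 0.07 in KO and -0.05 in WT cells, a difference of 0.118.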

How the results depend on the processing

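No paired analysis was possible because the labels give no replicate numbers that would match animals or cultures. With culture condition as the pair, limma on the 4 KO minus WT differences called 0 members. With limma, 6 in place of 12 members were called higher for IFN-gamma, 1 in place of 7 for IL-4, and 2 in place of 6 for the difference of these terms. DESeq2 called 2 in place of 5 lower for IFN-gamma and 2 in place of 7 higher for IL-4. The lower genotype call in bone marrow-derived cells became 0 with limma and 2 without the low count filter. The lower call for the peritoneal IFN-gamma pair against the other 3 became 0 with limma and 4 without the filter. The median log2 ratio of ER members with IFN-gamma in KO cells was 0.169 on TMM-scaled counts and 0.154 with rescaled libraries, against 0.032. With IL-4 in WT cells the ER median was 0.051 on TMM-scaled counts, against -0.002, and the cytosolic median was 0.189 on TMM-scaled counts and 0.165 with rescaled libraries, against 0.133. The cause was not tested. The other 164 values under these alternatives stayed within 1.5 times the count given or within the error of the median. That error is an interval over the member genes, not over replicate libraries. For the 11 cytosolic members it can be wide, as from -0.677 to 0.507 for IFN-gamma in WT cells. Counts of 0 that stayed 0 are also among these values, so that staying within these limits says little about stability. Some medians near 0 changed sign. With rescaled libraries and on TMM-scaled counts the cytosolic median was 0.017 and 0.034 for IFN-gamma in WT cells, against -0.036, and -0.037 and -0.05 for KO minus WT in untreated peritoneal cells, against 0.002. With rescaled libraries the ER median for IL-4 in WT cells was 0.032, and on TMM-scaled counts the cytosolic KO minus WT response to IL-4 was -0.002, against 0.034. No called value reversed. Of 37 called values of single members, DESeq2 kept 22, limma 19, other size factors 34 and no filter 37. With 1 library a group, no difference between genotypes within a condition has a replicate check. The peritoneal libraries hold fewer counts than the bone marrow-derived ones, so that low members such as Hspa1a carry wide counting intervals.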
